A study of Oryctolagus cuniculus with 134 samples.

Results

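GPNMB, SPP1 and CHI3L1 are 3 of the 29587 genes counted in rabbit aorta and heart valves, and were taken as the rows carrying those symbols (ENSOCUG00000026334, ENSOCUG00000022536 and ENSOCUG00000026988 on the OryCun2.0 build). They were chosen by their CPM levels and fold changes across the tissues and treatments of these same libraries, and by their relation over libraries. All of these are therefore given below as a description, with no test. RNA was sequenced from 27 rabbits, 1 library each for the proximal aorta and the 4 heart valves, with 1 mitral valve missing. Each of the 20 groups of tissue and treatment held 6 or 7 rabbits.

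All rabbits were male New Zealand White, entered the protocol at 12 weeks of age and were killed after 16 weeks. Ctrl rabbits ate chow and received no vitamin D2. CHT rabbits ate chow enriched with 0.3% cholesterol, and Lard rabbits a diet with 5% lard, and both drank vitamin D2 for the first 15 days, at 25000 U per day scaled to body weight. IR/CHT rabbits were treated as CHT rabbits and in addition received cardiac X-rays after 8 weeks of diet, 24 Gy in 3 fractions of 8 Gy, aimed at the aortic valve and thoracic aorta. Because only the Ctrl rabbits lacked vitamin D2, diet and vitamin D2 cannot be told apart in comparisons with Ctrl. By protocol IR/CHT and CHT differed in the irradiation. They also differed in plate in the aortic and mitral valve, where 3 of 7 IR/CHT and no CHT libraries were on plate 2, and the rabbit numbers of Ctrl, of IR/CHT, and of CHT with Lard fell in separate ranges, so whatever those ranges mark cannot be told apart from the treatments.

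GPNMB encodes a transmembrane glycoprotein of lysosomes and the cell surface that is abundant in macrophages loaded with lipid, and is transcribed in several cell types under MiT family factors such as MITF. SPP1 encodes osteopontin, a secreted glycoprotein that binds integrins and CD44 and is made both by macrophages and by mineralizing cells. CHI3L1 encodes a secreted protein related to chitinases that binds chitin without cutting it, and is made by macrophages, chondrocytes and some fibroblasts. Foam cells, the macrophages and smooth muscle cells that fill with cholesterol esters in an atherosclerotic plaque, are a known source of all these transcripts, but in bulk tissue fewer cells of a type and less RNA per cell cannot be told apart.

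The libraries held 13564979 to 50577676 counts, with a median of 18235577, and levels are given as CPM, counts scaled by library size over all libraries together. Plate 2 held every aorta library, and plate 1 every aortic and mitral valve of CHT rabbits. The overall profile of 10 valve libraries was closest to the libraries of another valve than the one on the label. The widest gap was in the Ctrl tricuspid library L168, whose correlation was 0.652 with its own tissue and 0.936 with the aortic valve. L168 and the CHT tricuspid library L172 carried the highest GPNMB and CHI3L1 of their groups, so the tricuspid group means of Ctrl and CHT are given with and without them. The Lard pulmonary library L271 was closest to the tricuspid valve (0.961, against 0.907 with its own), and the Lard tricuspid library L272 of the same rabbit to the pulmonary valve (0.949, against 0.843). Whether these were exchanged was not tested, and without L271 the Lard pulmonary means were 36.6 in place of 39.8 CPM for SPP1 and 121.6 in place of 119.7 for CHI3L1. Without L272 the Lard tricuspid means were 8.06 in place of 7.56 CPM for GPNMB and 116.7 in place of 110.7 for CHI3L1. No aorta library was among the 10. Smooth muscle markers, of which 5 of 7 were listed, summed to a median of 101400 CPM in the Ctrl aorta and 930 CPM in the Ctrl aortic valve.

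**Figure D1:**
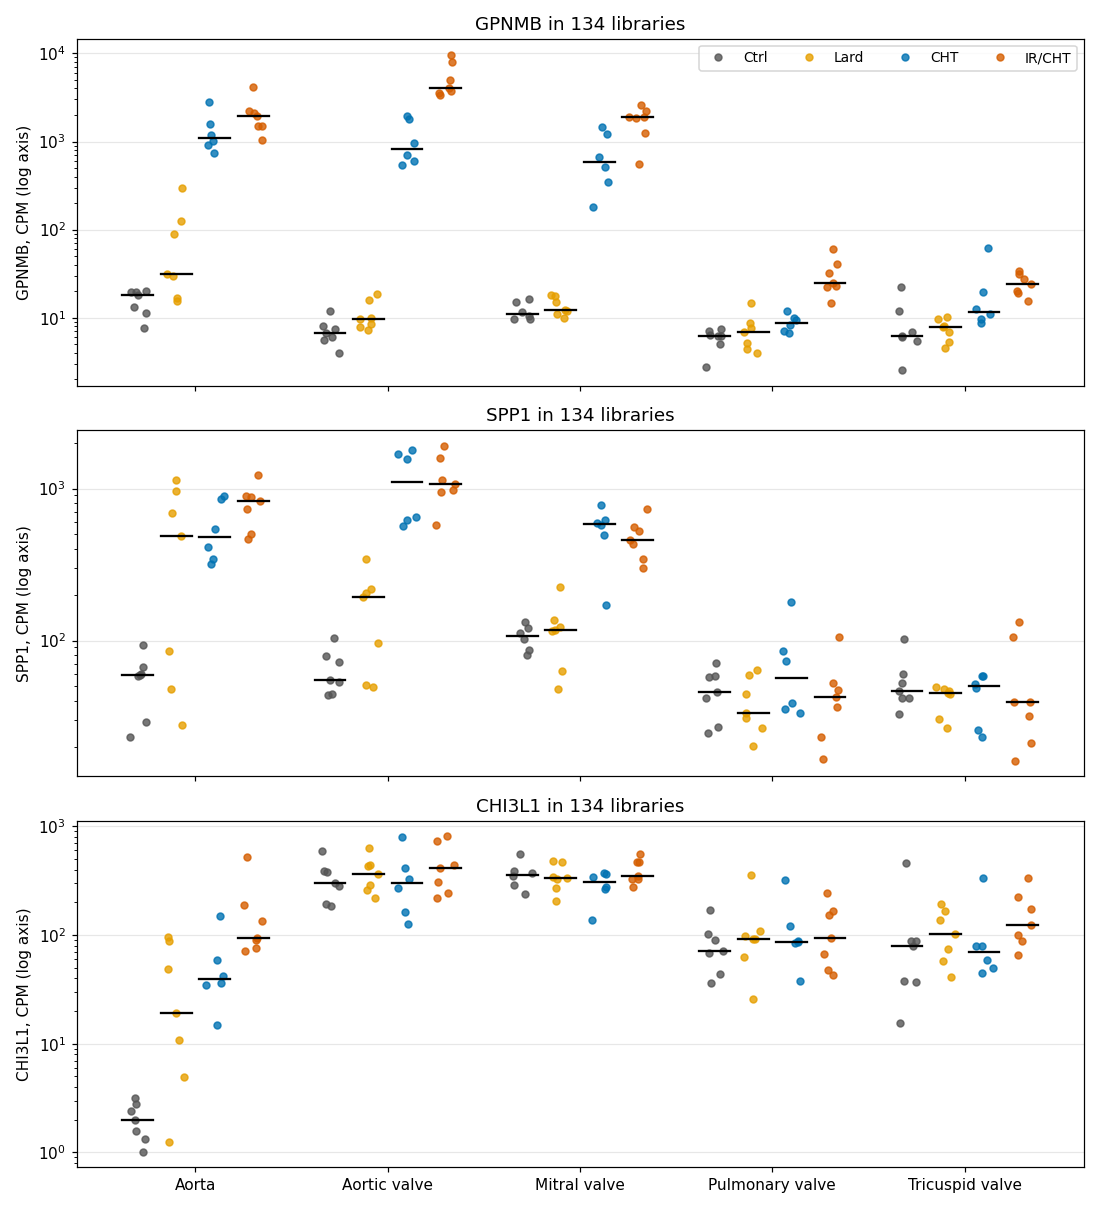
CPM of GPNMB, SPP1 and CHI3L1 on a log axis in every library, by tissue and treatment, with a bar at each group median. GPNMB spans from a few CPM in Ctrl valves to 9682 CPM in an IR/CHT aortic valve, SPP1 is high on cholesterol in the left-sided tissues, and CHI3L1 is lowest in the Ctrl aorta.

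On chow the 3 genes differed in where they were expressed (medians over all Ctrl libraries, L168 included). CHI3L1 had a median of 360.1 CPM in the mitral valve, 299 CPM in the aortic valve, 78.7 CPM in the tricuspid valve, 70.7 CPM in the pulmonary valve and 1.98 CPM in the aorta. The Ctrl aorta libraries, at 1.02 to 3.20 CPM and 16 to 50 counts, did not overlap those of any valve, while the mitral and aortic valve overlapped each other, as did the tricuspid and pulmonary valve. Within the same chow-fed rabbit, CHI3L1 was higher in the aortic valve than in the aorta in 7 of 7 rabbits, by a median of 7.08 on the log2 scale. SPP1 was more even, with medians of 107.6 CPM in the mitral valve, 59.6 for the aorta, 55.1 for the aortic valve, 46.9 for the tricuspid and 45.7 for the pulmonary valve. GPNMB was low everywhere, with medians of 17.9 CPM in the aorta, 11 in the mitral valve, 6.70 in the aortic, 6.24 in the pulmonary and 6.19 in the tricuspid valve, and neighbours in this order overlapped.

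GPNMB had the widest range of the 3 genes. In the aortic valve, Ctrl libraries lay at 3.95 to 12 CPM with a median of 6.70, CHT libraries at 538.6 to 1956 with a median of 832.4, and IR/CHT libraries at 3385 to 9682 with a median of 4035. No CHT library overlapped a Ctrl library, and no IR/CHT library overlapped a CHT library. The group means were 7.10 ± 2.54 CPM (SD, n = 7) in Ctrl, 1089 ± 623 (n = 6) in CHT and 5354 ± 2504 (n = 7) in IR/CHT. The fitted log2 fold change was 7.26 (SE 0.42) for CHT against Ctrl, 9.54 (SE 0.46) for IR/CHT against Ctrl and 2.28 (SE 0.35) for IR/CHT against CHT. In the highest IR/CHT library, GPNMB alone took 0.905% of all counted read pairs.

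Lard left GPNMB near the Ctrl level in the aortic valve, at 7.20 to 18.7 CPM with a median of 9.61, and a log2 fold change of 0.65 (SE 0.32). Of the 7 Lard libraries, 2 lay above every Ctrl library. Because all CHT aortic valves were on plate 1, the comparisons were repeated on plate 1 alone, where the log2 fold change of GPNMB was 7.24 for CHT against Ctrl and 2.54 (SE 0.43) for IR/CHT against CHT.

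The mitral valve showed the same order of treatments for GPNMB, at lower levels. Ctrl libraries lay at 9.69 to 16.3 CPM, CHT libraries at 178.4 to 1461 with a median of 588.1, and IR/CHT libraries at 557.6 to 2608 with a median of 1873. Both cholesterol groups were clear of Ctrl, with log2 fold changes of 5.91 (SE 0.44) and 7.14 (SE 0.46). IR/CHT and CHT overlapped, with 5 of 7 IR/CHT libraries above every CHT library and a log2 fold change of 1.23 (SE 0.35). Lard mitral valves had 13.7 ± 3.26 CPM of GPNMB (n = 7), against 12.1 ± 2.83 in Ctrl (n = 6).

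Other cell type markers also differed between the treatments of both valves. Smooth muscle markers in the mitral valve summed to 160.3 to 414.8 CPM in Ctrl and 466.6 to 1354 in CHT, with no overlap, and to 212.7 to 1407 in IR/CHT. Heart muscle markers of the aortic valve, 6 of 9 listed, had summed medians of 776.6 CPM in Ctrl, 68.9 in Lard, 49.7 in CHT and 44.0 in IR/CHT, with ranges that overlapped. Chondrocyte markers there had medians of 568.2 CPM in Ctrl, 607.9 in Lard, 432.0 in CHT and 308.8 in IR/CHT. The part of these cells in the valve values of the 3 genes was not tested.

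In the aorta GPNMB was at 7.68 to 20.1 CPM in Ctrl, 740.2 to 2813 in CHT with a median of 1096, and 1034 to 4116 in IR/CHT with a median of 1960. Neither cholesterol group overlapped Ctrl, and the log2 fold changes were 6.48 (SE 0.64) and 7.09 (SE 0.65). Between IR/CHT and CHT the ranges overlapped almost wholly, with 1 of 7 IR/CHT libraries above every CHT library and a log2 fold change of 0.61 (SE 0.52). Lard aortas spread from 15.6 to 297.7 CPM, and 5 of 7 were above every Ctrl aorta.

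Other cell type markers moved over the same aortas in which the 3 genes differed. The 5 listed smooth muscle markers had summed medians of 101400 CPM in Ctrl, 73670 in Lard, 55150 in CHT and 31000 in IR/CHT, and the ranges of the cholesterol groups (31430 to 80880 and 11540 to 60700) lay below that of Ctrl (81360 to 115100). All 7 endothelial markers were listed, with summed medians of 181.3, 300.4, 571.7 and 738.3 CPM in the same order. The part of smooth muscle and endothelial content in the aortic values of the 3 genes was not tested.

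On cholesterol, with or without irradiation, the right-sided valves held far less GPNMB than the left-sided tissues. In the pulmonary valve, Ctrl libraries lay at 2.77 to 7.45 CPM, CHT at 6.79 to 12 and IR/CHT at 14.7 to 59.6 with a median of 25.1. The IR/CHT libraries overlapped neither Ctrl nor CHT, with log2 fold changes of 2.40 (SE 0.29) and 1.82 (SE 0.30). On plate 1 alone these were 2.71 and 1.98, and on plate 2 alone, with 2 libraries in each of these groups, 1.46 and 1.17. Heart muscle markers of the same valve summed to 29.2 to 5340 CPM in Ctrl, 7.43 to 34.1 in CHT and 53.3 to 1673 in IR/CHT, with no overlap between CHT and IR/CHT. Smooth muscle markers reached 19570 CPM in 1 IR/CHT library, against at most 1007 in Ctrl, and endothelial markers were as low as 98.8 CPM in IR/CHT, against at least 1114 in Ctrl. The part of these cells in the pulmonary values was not tested. Taken within one rabbit as pulmonary minus aortic valve, GPNMB had a median log2 difference of -6.49 in CHT and -7.64 in IR/CHT, and was lower in the pulmonary valve of all 6 and all 7 rabbits.

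In the tricuspid valve GPNMB had means of 8.79 ± 6.65 CPM in Ctrl (n = 7), 20.5 ± 20.7 in CHT (n = 6) and 24.5 ± 6.96 in IR/CHT (n = 7), and all these groups overlapped. The overlap of IR/CHT with Ctrl was due to L168 alone, since the lowest IR/CHT library was at 15.3 CPM and the highest Ctrl library without L168 at 11.8. Without L168 and L172 the Ctrl mean was 6.50 ± 3.01 (n = 6) and the CHT mean 12.3 ± 4.24 (n = 5), and without the libraries that stand apart the log2 fold change of IR/CHT against Ctrl went from 1.45 to 1.96. On plate 1 alone that difference was 2.22 and on plate 2 alone 0.43. The plate 2 value rested on 2 Ctrl libraries, L168 at 22.5 CPM and L280 at 11.8, against 15.3 to 31.5 in the 3 IR/CHT libraries there.

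SPP1 was high in the same left-sided tissues as GPNMB but did not follow the same order. In the aortic valve, Ctrl libraries lay at 44 to 103.8 CPM with a median of 55.1, CHT at 570.5 to 1795 with a median of 1107, and IR/CHT at 573.3 to 1918 with a median of 1078. Both cholesterol groups were clear of Ctrl, while IR/CHT and CHT covered the same range. The log2 fold change was 4.15 (SE 0.43) for CHT against Ctrl, 4.17 (SE 0.43) for IR/CHT against Ctrl and 0.02 (SE 0.39) for IR/CHT against CHT. On plate 1 alone the CHT difference from Ctrl was 4.06 and the difference of IR/CHT from CHT 0.23.

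SPP1 in the mitral valve lay at 79.7 to 132.2 CPM in Ctrl, 170.8 to 781.2 in CHT and 300.4 to 731.1 in IR/CHT. Neither cholesterol group overlapped Ctrl, and the log2 fold changes were 2.34 (SE 0.32) and 2.14 (SE 0.31), with -0.20 (SE 0.29) between IR/CHT and CHT. In the aorta SPP1 lay at 23.2 to 93.8 CPM in Ctrl, 317.6 to 892 in CHT and 463.1 to 1220 in IR/CHT, again with no overlap with Ctrl. The log2 fold changes there were 3.35 (SE 0.61) and 3.86 (SE 0.62), and IR/CHT differed from CHT by 0.52 (SE 0.57), within the spread of the libraries.

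Outside the aorta, the largest Lard difference of the 3 genes was that of SPP1 in the aortic valve. Those Lard valves lay at 49.6 to 344.3 CPM with a median of 193.9, and 4 of 7 were above every Ctrl valve, for a log2 fold change of 1.35 (SE 0.38). Lard mitral valves, at 47.9 to 224.9 CPM, overlapped Ctrl with a log2 fold change of 0.16 (SE 0.29). Group means of SPP1 ran from 39.8 to 74.5 CPM in the pulmonary valve and from 41.5 to 55.3 CPM for the tricuspid valve, and all groups of each valve overlapped. Without L168, which held the highest tricuspid SPP1 of Ctrl, that group's mean was 46.1 ± 9.38 CPM (n = 6) in place of 54.2 ± 23.2 (n = 7), and without L172 that of CHT was 42.7 ± 17.2 (n = 5) in place of 44.1 ± 15.8 (n = 6). Within one CHT rabbit, SPP1 in the pulmonary minus the aortic valve had a median log2 difference of -4.23, and was negative in all 6.

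CHI3L1 was far above Ctrl in the aorta and near it in the aortic and mitral valve, while its tricuspid differences depended on L168. Against 1.02 to 3.20 CPM in Ctrl aortas, CHT libraries lay at 14.7 to 150.2 CPM with a median of 39.0, and IR/CHT libraries at 71.7 to 518.9 with a median of 94.3. Both groups were clear of Ctrl, with log2 fold changes of 4.81 (SE 0.78) and 6.42 (SE 0.82). IR/CHT exceeded CHT by 1.61 on the log2 scale (SE 0.68), but the groups overlapped, with 2 of 7 IR/CHT libraries above every CHT library. The means, 167.9 CPM in IR/CHT and 56.0 in CHT, lay above the medians, each raised by its highest library, at 518.9 and 150.2.

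CHI3L1 in the aortic valve was 331.3 ± 140.0 CPM in Ctrl (n = 7), 376.9 ± 141.8 in Lard (n = 7), 351.3 ± 245.4 in CHT (n = 6) and 451.2 ± 231.3 in IR/CHT (n = 7). In the mitral valve it was 367 ± 109, 348 ± 101, 294 ± 88.2 and 399 ± 103. All groups of each valve overlapped, and the log2 fold changes against Ctrl ran from -0.33 (SE 0.23) for CHT in the mitral valve to 0.43 (SE 0.36) for IR/CHT in the aortic valve. The gap between aortic valve and aorta of one rabbit therefore differed between treatments, with medians of 7.08 in Ctrl, 4.49 in Lard, 2.81 in CHT and 1.63 in IR/CHT on the log2 scale. The valve was higher in every rabbit of all 4 groups.

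CHI3L1 in the pulmonary valve had means of 82.8 to 123 CPM over the 4 groups and log2 fold changes against Ctrl of 0.49 to 0.53, each close to its SE. In the tricuspid valve the means were 107.7 to 158.2 CPM. Without L168 and L172 the Ctrl mean there went from 115.4 (range 15.4 to 463.1, n = 7) to 57.4 ± 31.4 (n = 6) and the CHT mean from 107.7 ± 111.8 (n = 6) to 62.5 ± 16.3 (n = 5). The IR/CHT difference from Ctrl was 0.36, and 1.49 with the libraries that stand apart left out, and was 1.74 on plate 1 alone and -1.12 on plate 2 alone. The negative value rested on L168, at 463.1 CPM, since the other plate 2 Ctrl library, L280, was at 78.7 CPM, below all 3 IR/CHT libraries of that plate at 99.2 to 173.3. Lard differed from Ctrl by -0.16, and by 1.04 without the libraries that stand apart.

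**Figure D2:**
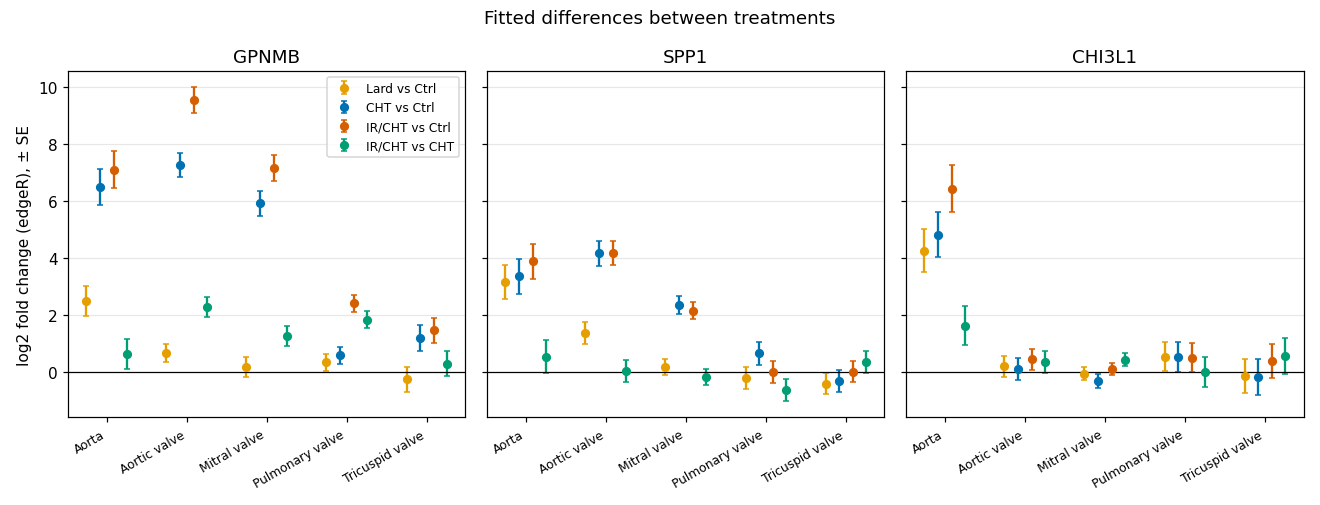
Fitted log2 fold change with its SE for each gene, tissue and comparison; the line at 0 marks no difference. GPNMB stands highest in the CHT and IR/CHT comparisons with Ctrl in the aorta, aortic and mitral valve, SPP1 lies near 0 for IR/CHT against CHT in both of these valves, and CHI3L1 is farthest from 0 in the aorta.

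Counted as genes whose libraries all lay above all libraries of the other group, CHT against Ctrl held 3 of the 3 genes in the aorta, where 7.89% of all tested genes did so. The aortic valve held 2 (4.75%), the mitral valve 2 (3%), the pulmonary valve 0 (0.298%) and the tricuspid valve 0 (0.184%). IR/CHT against Ctrl held 3 in aortas (11.7%), 2 in aortic valves (13%), 2 in mitral valves (5.99%), 1, GPNMB, in pulmonary valves (0.45%) and 0 in tricuspid valves (0.122%), where GPNMB would be counted without L168. For IR/CHT against CHT the counts were 1 of 3 in the aortic valve (5.82%) and in the pulmonary valve (0.595%), GPNMB in both, and 0 in the aorta (0.365%), mitral valve (0.124%) and tricuspid valve (0.136%). Lard against Ctrl held 0 in the aorta (0.21%), aortic valve (0.026%), mitral valve (0.0261%), pulmonary valve (0.0346%) and tricuspid valve (0.0272%). These comparisons chose the genes, and the shares are given as the background alone.

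The Lard aortas varied most, and the 3 genes moved together in them. In the order L562, L563, L564, L575, L576, L577 and L578, SPP1 was at 1144, 48.2, 84.8, 970.1, 27.6, 694.6 and 485.3 CPM. CHI3L1 in the same order was at 95.6, 4.96, 10.8, 88.0, 1.24, 19.0 and 48.7 CPM. GPNMB was at 88.7, 16.9, 31.4, 124.2, 15.6, 29.8 and 297.7 CPM. L563, L564 and L576 were within the Ctrl range for SPP1 and the other 4 were above it, while CHI3L1 was above the Ctrl range in 6 of 7.

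L576 held the lowest value of each gene, L562 the highest SPP1 and CHI3L1, and L578 the highest GPNMB. The log2 fold changes of Lard against Ctrl were 2.49 (SE 0.53) for GPNMB, 3.15 (SE 0.60) for SPP1 and 4.25 (SE 0.76) for CHI3L1, with overlap for each gene. For GPNMB the Lard mean of 86.3 CPM lay well above the median of 31.4, with L578 at 297.7. As a difference of mean log2 CPM, CHI3L1 differed by 3.15 with all libraries and by 3.77 without L576. The aortic valves of these rabbits did not repeat the order: the rabbit of L576 had 217.2 CPM of SPP1 in its aortic valve and that of L578 had 51.2.

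Osteopontin is also a product of mineralizing cells, and the genes of bone and cartilage varied over the same libraries. IBSP, a bone matrix glycoprotein whose gene lies 2 genes from SPP1 on the rabbit chromosome, beyond MEPE, was at 248.3 CPM in L562 and 36.5 in L575, and at 0.0622 to 4.27 in the other 5 Lard aortas. DMP1, another mineral-binding glycoprotein of that gene cluster, was at 43.2 CPM in L562, 9.28 in L575 and at most 1.28 in the others. RUNX2, the transcription factor of osteoblasts, was at 17.3 CPM in L562 and 0.124 to 4.40 in the others.

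Of the cartilage genes, COL2A1 and ACAN stood highest in another library, L578. COL2A1, the collagen of cartilage, was at 730.2 CPM in L578 and 333.3 in L562, between 63.2 and 333.3 in L575, and 0 to 63.2 in the remaining 4. ACAN, the cartilage proteoglycan, was at 443.3 CPM in L578, 312.4 in L575 and 231.5 in L562, against 6.41 to 160.4 in the rest. SOX9, another chondrocyte marker, did not follow them. It was at 34.7 CPM in L564, 34.2 in L578, 31.0 in L562 and 26.1 in L563, and at 7.65 to 21.4 in the rest. CD68, a lysosomal protein of macrophages, was at 81.1 CPM in L578 and 53.8 in L562, and 10.6 to 27.7 in the other 5. MRC1, another macrophage gene, varied less. It was at 144.2 CPM in L578, 134.1 in L562, 129.5 in L564, 112.1 in L575 and 106.1 in L563. L576, with the lowest value of each of the 3 genes, had 121.5 CPM of MRC1, and L577 had the lowest MRC1. The part of mineralizing, cartilage or macrophage cells in the Lard values of the 3 genes was not tested. Summed over 8 of 8 osteoblast markers, Lard aortas held 4.70 to 409.2 CPM, against 3.02 to 9.53 in Ctrl, where SP7 was at 0 counts in all libraries. Summed over 6 of 8 chondrocyte markers they held 35.9 to 1278 CPM, against 34.1 to 95.2 in Ctrl.

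**Figure D3:**
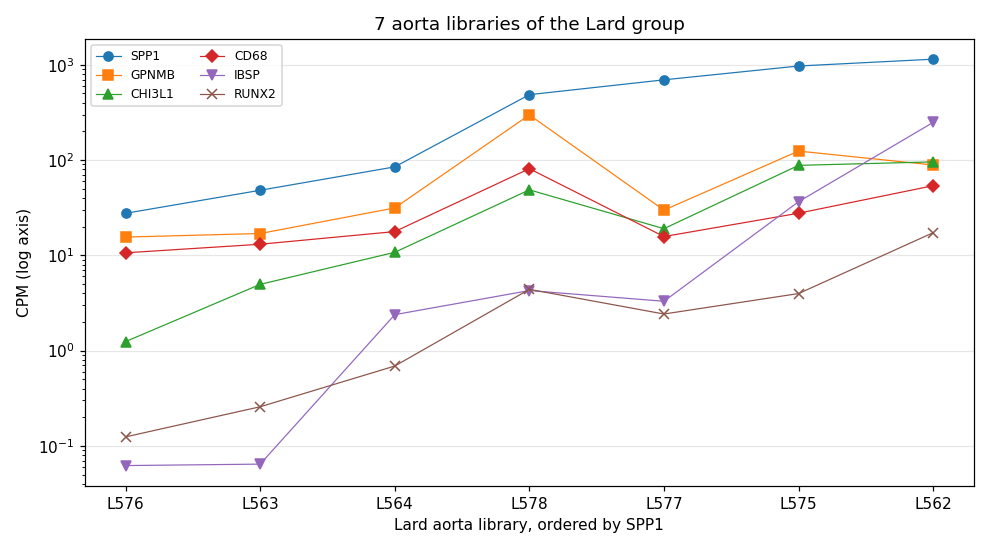
CPM on a log axis in each of the 7 Lard aortas, ordered by SPP1, for the 3 genes, CD68, IBSP and RUNX2, 1 point per library. L562 and L575 hold the highest SPP1, CHI3L1 and IBSP, L578 the highest GPNMB and CD68, and L576 the lowest value of all 6 genes.

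Over libraries, the 3 genes were related most in the aorta. The relation over libraries was part of how the genes were chosen, and is given as a description. After the mean of each tissue and treatment was subtracted from log2 CPM, the correlation over the 27 aorta libraries was 0.79 for GPNMB with CHI3L1, 0.679 for SPP1 with CHI3L1 and 0.649 for GPNMB with SPP1. In the aortic valve (27 libraries) the same pairs had 0.426, -0.004 and 0.183, and in the mitral valve (26 libraries) 0.402, 0.378 and 0.536. Within a tissue each point is 1 rabbit, and in the aorta all points share a plate.

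Among the aorta groups, SPP1 and CHI3L1 were closely related in Lard only. Over the 7 Lard aortas the correlation was 0.941, over the 6 CHT aortas -0.244, over the 7 IR/CHT aortas -0.144 and over the 7 Ctrl aortas 0.067. GPNMB and CHI3L1 had 0.839, 0.918 and 0.761 in the first 3 of these and 0.034 in Ctrl. GPNMB and SPP1 had 0.741 in Lard, -0.23 in CHT, 0.48 in IR/CHT and 0.9 in Ctrl aortas. Over all 20 groups GPNMB and CHI3L1 had a correlation above 0 in 16, with a median of 0.604, while GPNMB with SPP1 and SPP1 with CHI3L1 were above 0 in 13 each, with medians of 0.156 and 0.17. With 6 or 7 libraries a group, single values are loose.

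Over the libraries of all tissues the correlation was 0.539 for GPNMB with CHI3L1, 0.378 for GPNMB with SPP1 and 0.359 for SPP1 with CHI3L1. On plate 1 alone, which held no aorta, these were 0.31, 0.204 and 0.014, and on plate 2 alone 0.714, 0.502 and 0.557. Between group means GPNMB and SPP1 were the closest pair. Over the 20 means of tissue and treatment, GPNMB and SPP1 correlated at 0.926, SPP1 and CHI3L1 at 0.326 and GPNMB and CHI3L1 at 0.243. Over rabbits, with treatment means subtracted, the aortic and mitral valve of one animal correlated at 0.609 for SPP1, 0.494 for GPNMB and 0.403 for CHI3L1 (26 rabbits). The aorta and aortic valve correlated at 0.312, -0.081 and 0.198 (27 rabbits). These include the aortic valves L277 and L232, whose profile was closest to the mitral valve, and the mitral valves L262, L158 and L266, closest to the aortic. Plate was not subtracted. The aortic and mitral valve of a rabbit were mostly on the same plate, while every aorta was on plate 2.

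**Figure D4:**
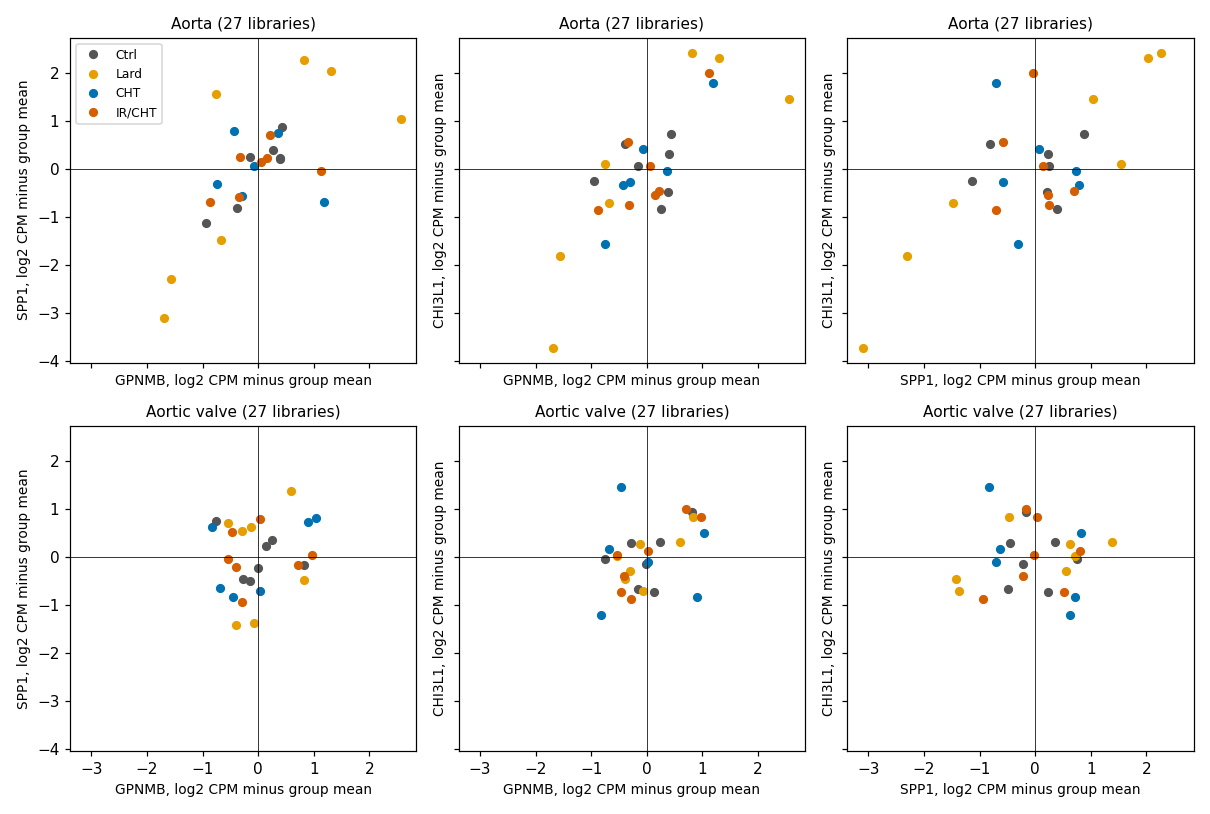
Deviations of log2 CPM from the mean of the treatment group for the 3 gene pairs in the aorta (top) and aortic valve (bottom), each point 1 library. In the aorta the Lard libraries spread widest and lie along a rising line for all pairs (r = 0.741, 0.839 and 0.941 over 7 libraries), while SPP1 and CHI3L1 show no such line in the aortic valve (r = -0.004).

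Among 10890 genes compared over all libraries within groups, the genes with the pattern most like GPNMB were MATN1 (r = 0.682), CD68 (0.676), ITGAL (0.655), MYO1F (0.653) and CTSB (0.65). Those most like SPP1 were LCP1 (0.709), CP (0.599), GPR183 (0.597), BLNK (0.589) and PTPRC (0.585). Those most like CHI3L1 were ARPC1B (0.655), CAPG (0.654), SLCO2B1 (0.634), CRYBG1 (0.632) and RUNX1 (0.624). By the same measure CHI3L1 was at rank 71 among the genes like GPNMB, and GPNMB at rank 26 among those like CHI3L1.

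Over the 20 group means, GPNMB was most like ITGAL (0.996), TRPM1 (0.99), HCST (0.986), SNX10 (0.984) and MMP12 (0.984). SPP1 was most like EPCAM (0.973), ITGAX (0.966), RGS1 (0.963), FLT3 (0.96) and GALNT6 (0.958), and CHI3L1 like CMTM3 (0.977), P4HA3 (0.973), SPINT1 (0.972), ASGR1 (0.958) and ARAP3 (0.954). The group means relate many genes, and 26.4% of genes had r above 0.5 with GPNMB, 29.1% with SPP1 and 16.4% with CHI3L1.

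Macrophage markers were also higher on cholesterol in the left-sided tissues where GPNMB was high. The 12 listed of 13 macrophage markers summed to a median of 525.3 CPM in Ctrl aortic valves, 1305 in CHT and 3139 in IR/CHT, and to 148, 1217 and 1668 CPM in the aorta. Set against the mean log2 level of these markers, GPNMB in the aortic valve was at -1.71 in Ctrl, 3.58 in CHT and 4.80 in IR/CHT, and the marker mean itself was 4.48, 6.32 and 7.47. The step from CHT to IR/CHT, 1.22 with 12 markers, was 0.49 against CD68 alone, and that of SPP1 was -1.03 and -1.76. SPP1 against the same markers was at 1.47, 3.67 and 2.64, and CHI3L1 at 3.79, 1.87 and 1.19.

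In the aorta SPP1 kept nearly the same distance from the markers in Ctrl (2.77), CHT (2.84) and IR/CHT (2.77), whereas GPNMB went from 1.01 to 4.11 and 4.10. In Lard aortas the distance of SPP1 was 3.57 with an SD of 1.93, and its SD in the other 3 groups was 0.47 to 0.66. The marker sum in Lard aortas had a median of 414.0 CPM, against 148.0 in Ctrl. Over the 27 aortas, with group means subtracted, the marker mean correlated at 0.762 with GPNMB, 0.619 with CHI3L1 and 0.5 with SPP1, and over the 27 aortic valves at -0.101, -0.334 and 0.298. The part of macrophage number in these values was not tested.

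**Figure D5:**
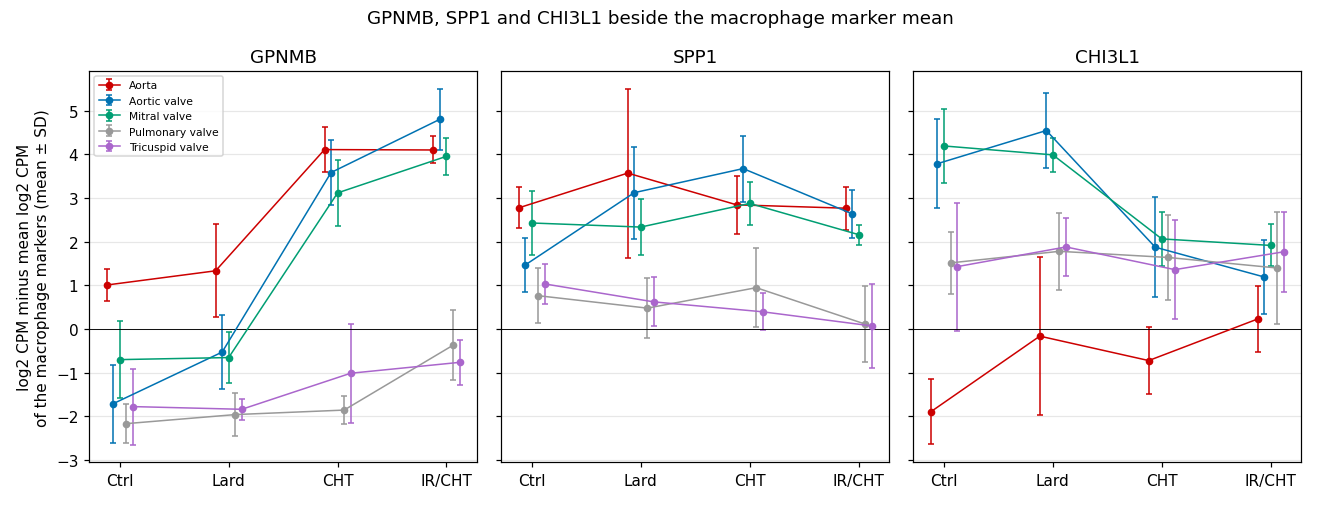
Log2 CPM of each gene minus the mean log2 CPM of 12 macrophage markers, as mean and SD over the libraries of each tissue and treatment, with 0 marking the marker mean. In the aortic valve GPNMB goes from -1.71 in Ctrl to 4.80 in IR/CHT, SPP1 stays above 0 in every group, and CHI3L1 goes from 3.79 to 1.19.

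The foam cell and lipid-handling macrophage genes were counted as a list, without GPNMB, SPP1 and CHI3L1, with 28 of 38 genes listed under their symbol. TREM2, FABP4 and APOE were not among them. In CHT against Ctrl 22 of 28 rose in the aorta, with a median log2 fold change of 2.27, where 14.2% of all tested genes rose and their median was -0.04. The aortic valve had 23 of 28 (median 2.43, against 8.42% and -0.02) and the mitral valve 19 of 28 (median 1.68, against 4.98% and -0.02). The lower call of CHT aortic valves was lost with no filter on low counts, with only the 2 groups in the fit, with plate as a covariate, and without any one of L150, L166, L169, L186, L228, L261 and L265. With irradiated cholesterol against Ctrl 24 rose in aortas (22.2% of all genes), 27 in aortic valves (21.1%) and 24 in mitral valves (11.1%). In aortic valves 1 list gene fell in each of these comparisons, where 3.48% of all genes fell in CHT and 21.7% in IR/CHT. A gene was called where edgeR gave an adjusted p under 0.05 over all genes and a fold change over 1.5. ABCA1, the cholesterol exporter, was at 65.2 ± 8.10 CPM in Ctrl and 910 ± 253.9 in CHT aortas (log2 fold change 3.83, adjusted p = 2.09e-13). CTSS, a lysosomal protease of macrophages, changed by 4.30 (adjusted p = 3.29e-09), and CTSB, another lysosomal protease, by 2.78 (adjusted p = 7.26e-09).

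CD68 in the aortic valve rose by 2.96 (adjusted p = 1.96e-09), ABCA1 by 3.91 (adjusted p = 5.21e-10) and CTSS by 4.13 (adjusted p = 8.32e-09). CTSK, a collagen-degrading protease, rose by 1.25 in the aorta (adjusted p = 2.4e-06) and 2.47 in the aortic valve (adjusted p = 1.47e-06). In the pulmonary and tricuspid valve, where GPNMB stayed low, ABCA1 was the only gene of the list that edgeR called higher in CHT, by 2.47 (adjusted p = 1.58e-11) and 2.69 (adjusted p = 2.13e-08), where 0.0484% and 0.0816% of all genes rose. DESeq2 called 2 list genes higher in the pulmonary and 1 in the tricuspid valve (0.234% and 0.119% of all genes), and 6 and 2 were higher at an unadjusted p under 0.05 (5.2% and 3.64%). IR/CHT against Ctrl had 3 of 26 in the pulmonary valve (0.581% of all genes), ABCA1, MMP12 and MSR1, and 1 of 25 for the tricuspid valve (0.109%), and against CHT 0 of 26 (0.0761%) and 0 of 25 (0%), with 8 and 3 higher at an unadjusted p under 0.05 (14.1% and 4.85%) and 2 and 0 called higher by DESeq2 (2.57% and 0.0122%). Without the libraries that stand apart the tricuspid counts were 8 against Ctrl and 3 against CHT. The pulmonary count against Ctrl was 5 by DESeq2 and 1 when the fit held those 2 groups alone. The share of all genes is not given for these fits, so whether these counts are particular to the list cannot be told. PLIN2, a coat protein of lipid droplets, rose by 1.51 in the aorta (adjusted p = 1.27e-06) and 1.71 in the aortic valve (adjusted p = 5.08e-06). LPL, the lipase of triglyceride uptake, was at 0.99 (adjusted p = 0.276) and 1.08 (adjusted p = 0.191) and was not called.

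Irradiation added to cholesterol came with a rise of 25 of 28 list genes in the aortic valve, with a median of 1.66 (9.9% of all tested genes, median 0.02). LPL was among them, at 68.3 ± 19.9 CPM in CHT and 412 ± 394 in IR/CHT (log2 fold change 2.57, adjusted p = 0.00292). In the aorta and mitral valve 0 of 28 were called by edgeR (0.162% and 0.0522% of all genes). At an unadjusted p under 0.05, 9 and 20 of them were higher (11.7% and 6.12% of all genes), and DESeq2 called 1 and 7 higher (1.84% and 0.363%). GPNMB, clear of CHT in the aortic valve and overlapping it in the aorta and mitral valve, had log2 fold changes of 2.28, 0.61 and 1.23 in these tissues. In Lard aortas 8 of 28 rose against 2.57% of all genes, and 0 when the fit held those 2 groups alone. Lard aortic and mitral valves had 0 of 28 called by edgeR (0.026% and 0% of all genes), with 2 and 0 higher at an unadjusted p under 0.05 (5.48% and 0.881%) and 3 and 1 lower (5.52% and 0.77%). DESeq2 called 1 and 0 higher (0.104% and 0%) and 2 and 0 lower (0.521% and 0%).

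Around GPNMB, 9 partners and relatives were tested, and 4 rose with cholesterol in the aorta (14.2% of all genes), as did 4 for the aortic valve (8.42%). TFEC, a MiT family transcription factor of macrophages, rose by 3.26 (adjusted p = 2.02e-06) in the aorta and 1.78 (adjusted p = 0.00303) in the aortic valve. MITF itself was at 70.6 ± 10.5 CPM in Ctrl and 60.8 ± 10.8 in CHT aortas (log2 fold change -0.19, adjusted p = 0.21). MITF in the aortic valve was not called in CHT (0.47, adjusted p = 0.0386, under the fold threshold) and rose with irradiation against CHT by 0.88 (adjusted p = 0.000189). SDC4, a heparan sulfate proteoglycan bound by GPNMB, rose in the aorta by 0.97 (adjusted p = 7.8e-05), and ADAM17, a protease that sheds cell surface proteins, in the aortic valve by 1.04 (adjusted p = 1.47e-05).

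TRPM1 and MLANA, genes known from melanocytes, were at levels that went with GPNMB. MLANA was at 0.945 CPM in Ctrl, 33.2 ± 11.6 in CHT and 44.0 ± 26.0 in IR/CHT aortas, and at 1.39, 16.4 ± 8.46 and 77.9 ± 27.2 CPM in the aortic valve. Of the pigment genes, PMEL, the closest relative of GPNMB, was at 0.405 CPM in CHT aortas (at most 1.12) and 0.209 CPM in CHT aortic valves. DCT was at 0 counts in all CHT aortic valves, and TYR in all Ctrl aortas, where MLANA was also low. The 7 melanocyte markers, MLANA included, were not all near 0. They summed to medians of 18.3 CPM in Ctrl, 49.6 in CHT and 50.9 in IR/CHT aortas. In aortic valves the medians were 9.28, 24.1 and 83.3 CPM.

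Around SPP1, 7 osteopontin receptors were tested. CD44 rose with cholesterol by 1.03 (adjusted p = 8.77e-06) in the aorta and 1.41 (adjusted p = 8.63e-07) in the aortic valve. ITGA4, an integrin chain of leukocytes, rose by 2.08 (adjusted p = 0.000158) and 2.94 (adjusted p = 8.72e-07). ITGAV, the chain shared by the integrins best known to bind osteopontin, was not called, at -0.21 (adjusted p = 0.357) and 0.57 (adjusted p = 0.0259, under the fold threshold). In all 3 rose and 1 fell of 7 in the aorta (14.2% and 5.18% of all genes), and 4 rose in the aortic valve (8.42%). The count of 4 fell to 2 with DESeq2 size factors, with plate as a covariate, and without any one of L150, L169, L186, L228 and L261, and the 1 that fell in the aorta was not called without L559, L572 or L574 or with no filter on low counts, and became 2 without L568.

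ITGA5, the fibronectin integrin chain, rose in the aorta from 38.0 ± 18.4 to 98.9 ± 47.6 CPM (adjusted p = 0.00967). ITGB1 rose in the aortic valve by 0.64 (adjusted p = 0.0276), a call that was lost with plate as a covariate (0.56, adjusted p = 0.125), when the fit held those 2 groups alone (0.62, adjusted p = 0.0838), with DESeq2 and with its size factors (0.58 in both, under the fold threshold), and without any one of L150, L166, L169, L186, L228 and L261. ITGB3 was not listed. Of the enzymes that cut or crosslink osteopontin, 3 of 5 rose in aortas (14.2% of all genes) and 2 of 4 in aortic valves (8.42%). MMP12, the macrophage elastase, was at no more than 3 counts in any Ctrl aortic valve, and the means of CHT and IR/CHT valves were at least 1447-fold and 6501-fold higher than that floor of 3 counts per library. The lowest CHT valve was 489.6-fold and the lowest IR/CHT valve 2637-fold above it. MMP9, a gelatinase, rose in the aorta by 6.02 on the log2 scale (adjusted p = 0.00195) and in the aortic valve by 2.78 (adjusted p = 0.00996). MMP3, another matrix metalloproteinase, rose in the aorta by 3.81 (adjusted p = 0.00401), from 0 to 4 counts in Ctrl to 1 to 17 in CHT libraries.

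IBSP was at no more than 3 counts in any Ctrl aorta, and its mean was at least 24.67-fold higher in CHT, 36.7-fold in IR/CHT and 216.8-fold in Lard aortas (edgeR adjusted p = 0.00793 for CHT and 0.00444 for Lard). Without the highest library of each group, L572, L567 and L562, the bounds were 14.9-fold, 16.8-fold and 39.97-fold. The lowest CHT and Lard aortas, at 0.0622 CPM each, were below the floor of 3 counts. IBSP in the aortic valve was called in CHT (log2 fold change 2.94, adjusted p = 0.0483). The call was lost with DESeq2 size factors (2.90, adjusted p = 0.0508), with no filter on low counts (2.96, 0.0671), with plate as a covariate (2.75, 0.123), without the libraries that stand apart (2.72, 0.0639), and without any one of L150, L166, L169, L198, L240, L261, L265 and L277, where it was 2.18 to 2.81. SPP1 had 165.2 ± 106.7 CPM in Lard aortic valves, where IBSP was at 0.0873 ± 0.113 CPM.

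Around CHI3L1, the chitinase CHIT1, its neighbour on the chromosome and a known product of lipid-laden macrophages, was at 1 count or none in Ctrl aortas. Group means of 13.5 ± 11.1 CPM in CHT, 33.3 ± 17.1 in IR/CHT and 6.07 ± 11.1 in Lard were at least 69.37-fold, 171.4-fold and 31.2-fold above the floor of 3 counts. The lowest CHT aorta was 11.7-fold and the lowest IR/CHT aorta 68.5-fold above it, while the lowest Lard aorta was below it, and without L578 the bound for Lard was 9.92-fold. In aortic valves, where CHI3L1 was about level, CHIT1 went from 0.557 ± 0.503 CPM in Ctrl to 10.4 ± 10.4 in CHT (log2 fold change 4.25, adjusted p = 7.57e-05) and 59.3 ± 28.8 in IR/CHT.

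CTBS, a lysosomal enzyme that degrades chitobiose, rose by 2.69 (adjusted p = 9.13e-08) in the aorta and 2.29 (adjusted p = 2.06e-06) in the aortic valve. CHI3L2, the closest relative of CHI3L1 in the list, rose in CHT aortic valves by 2.63 (adjusted p = 0.0233), a call lost with plate as a covariate (1.69, adjusted p = 0.238) and without CHT library L228 (2.205, adjusted p = 0.0763). LGALS3, a galectin that binds CHI3L1, rose by 2.31 (adjusted p = 3.52e-05) and 2.61 (adjusted p = 3.69e-06). Of the CHI3L1 receptors and binding partners tested, 2 of 4 rose in aortas (14.2% of all genes) and 2 of 5 in aortic valves (8.42%). In both tissues these were CD44 and LGALS3. The lists share genes, so their counts are not separate. CD44 is also among the osteopontin receptors and GPNMB partners, and LGALS3 is in the foam cell list. MMP12 and MMP9 are in the foam cell list and among the osteopontin enzymes.

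Of 15 transcription factors of the macrophage, AP-1 and MiT families, 6 rose with cholesterol in aortas (14.2% of all genes) and 4 in aortic valves (8.42%), the latter 2 when the fit held those 2 groups alone. With irradiated cholesterol against Ctrl 9 rose in each (22.2% and 21.1%), and 1 fell in aortas (12.2%). The 1 that fell was not called with no filter on low counts. SPI1 was not listed. NR1H3, the oxysterol receptor LXR alpha, rose by 2.37 (adjusted p = 2.28e-07) in the aorta and 1.92 (adjusted p = 1.51e-05) in the aortic valve. IRF8, a factor of myeloid cells, rose in the aorta by 2.78 (adjusted p = 7.14e-05). PPARG, the fatty acid receptor of macrophages and fat cells, rose in the aortic valve by 1.44 (adjusted p = 0.00921), and its call was lost with plate as a covariate (1.15, adjusted p = 0.0732) and when the fit held those 2 groups alone (1.42, adjusted p = 0.0618).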

How the data were processed

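Total RNA of the frozen tissue samples was sequenced from stranded libraries, and the authors mapped the reads to OryCun2.0 and deposited raw read counts per gene in 2 tables, 1 for each plate. Conversion to FASTQ used bcl2fastq 2.20, per the submitters' processing notes. Columns were matched to samples by library name, and no columns were left unused (0).

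Counts were tested as deposited with edgeR 4.0.16 (R 4.3.3), by the quasi-likelihood test with robust fitting, 1 fit per tissue over 4 treatments, TMM scaling and filterByExpr. Calls took a Benjamini-Hochberg adjusted p under 0.05 over all tested genes with more than 1.5-fold change, as the study set them. DESeq2 1.42.0 was an alternative. Levels are CPM on TMM-scaled library sizes of all libraries, and log2 CPM has a prior count of 2. Floors were 3 counts per library and cover counting error only. Python used numpy 2.4.6, pandas 2.3.3, scipy 1.17.1 and matplotlib 3.10.9. Scripts were tested on simulated counts. Gene order came from RefSeq mOryCun1.1, with no coordinates or sequences used. No pair of libraries held identical counts (0 pairs).

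GPNMB, SPP1 and CHI3L1, the gene lists and the marker lists were chosen with earlier results of these data known. Of each list, the 3 called genes with the smallest p in CHT against Ctrl were named for aorta and aortic valve, together with a set of fixed names such as ITGAV, MITF and LPL, and the 5 genes most like each of the 3. TRPM1, MLANA, the pigment genes, MATN1 and the bone and cartilage genes of the Lard aortas were named from the marker lists or after their values were seen. Libraries of one rabbit share the animal, and different rabbits are separate replicates. A library was taken to stand apart where its profile over 4000 genes was closer to another tissue.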

Additional observations from a re-analysis of the deposited data

Results flagged for a closer look

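Of 60 groups checked for a library far from the others, 4 held one on the log2 CPM scale, and chance flags about 1 in 20 groups. GPNMB in the Ctrl pulmonary valve library L263 was 2.77 CPM, below the others at 5.09 to 7.45. SPP1 in the CHT mitral valve library L245 was 170.8 CPM, below the others at 493.5 to 781.2. CHI3L1 in the CHT mitral valve library L187 was 138.7 CPM, against 266.2 to 371.2 in the others. CHI3L1 in the CHT tricuspid valve library L172 was 333.9 CPM, against 44.9 to 79.5 in the others, and L172 was among the libraries whose profile was closest to another tissue.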

How the results depend on the processing

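In the left-sided tissues no log2 fold change of the 3 genes moved by as much as the spread between libraries with DESeq2, DESeq2 size factors, no filter on low counts or only the 2 treatments compared. The same held in the aortic and mitral valve with plate as a covariate, on plate 1 alone, on plate 2 alone where it could be fitted (comparisons without CHT) and without the libraries that stand apart. These could not be run in the aorta, which was on 1 plate and held none of those libraries. Leaving out each library in turn was run on the difference of mean log2 CPM, not on the fitted fold change. Differences near 0 changed sign, among them CHI3L1 for CHT against Ctrl in the aortic valve, from 0.09 to -0.27 on plate 1 alone and -0.26 with plate as a covariate, and SPP1 for Lard in the mitral valve, from 0.16 to -0.24 on plate 2 alone. The cause of the differences below was not tested. On plate 2 alone, with 2 or 3 libraries in most right-sided groups, the log2 fold change of GPNMB was 1.46 for IR/CHT against Ctrl and 1.17 for IR/CHT against CHT in the pulmonary valve. The tricuspid values were -0.77 (CHT), -1.18 (Lard) and 0.43 (IR/CHT) relative to Ctrl, with 1.13 between IR/CHT and CHT. SPP1 on plate 2 alone was 2.02 for CHT and 0.85 for Lard against Ctrl and -2.43 for IR/CHT against CHT in the pulmonary valve, and for the tricuspid valve -0.93 (CHT), -0.96 (Lard) and -1.69 (IR/CHT) relative to Ctrl, with -0.83 between IR/CHT and CHT. CHI3L1 on plate 2 alone was -2.62 for CHT and -1.12 for IR/CHT against Ctrl in the tricuspid valve, where L168 was 1 of 2 Ctrl libraries in each of these fits. On plate 1 alone, tricuspid GPNMB was 2.25 for CHT and 2.22 for IR/CHT against Ctrl, and CHI3L1 1.396 and 1.74. In the CHT fits L172, a library that stands apart, was 1 of 4 CHT libraries. Its GPNMB was 62.0 CPM, against 9.65 to 19.4 in the other CHT tricuspid libraries of that plate. Its CHI3L1 was 333.9 CPM, against 44.9 to 79.5 in the other CHT tricuspid libraries. The correlation over all libraries was 0.31 on plate 1 alone for GPNMB with CHI3L1 and 0.014 for SPP1 with CHI3L1. Against CD68 alone in place of 12 markers, IR/CHT minus CHT went from 1.22 to 0.49 for GPNMB and from -1.03 to -1.76 for SPP1 in the aortic valve and from -0.72 to -1.22 for SPP1 in the mitral valve.

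The foam cell list held 8 called genes in Lard aortas, 5 with no filter on low counts and 0 with only the 2 treatments in the fit. For IR/CHT against CHT it held 1 under DESeq2 and 1 with only the 2 treatments in the aorta, 7 under DESeq2 and 3 without the libraries that stand apart in the mitral valve, 2 under DESeq2 in the pulmonary valve and 3 without those libraries in the tricuspid valve. Under DESeq2 it held 1 for Lard in the aortic valve, 2 for CHT in the pulmonary valve, 5 for IR/CHT against Ctrl in the pulmonary valve (1 with only the 2 treatments) and 2 in the tricuspid valve (2 with plate as a covariate, 8 without the libraries that stand apart). Where no share of all genes is given above for a fit, its counts have no background to be set against. Of the 5 genes most like each of the 3 over libraries, 3 (GPNMB), 4 (SPP1) and 3 (CHI3L1) remained under Spearman correlation and 2 for each with CHT and IR/CHT libraries only. Over group means 2, 0 and 1 remained under either. No paired analysis was possible because no rabbit received more than 1 treatment, which concerns the comparisons of treatments, while differences between tissues were taken within rabbits. Leaving out the libraries that stand apart, and single libraries from bounds at the floor, was chosen after seeing the data. The planned promoter motif counts were not run. Relations over 6 or 7 libraries and floors of 3 counts limit the lowest values.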
